A study of Homo sapiens with 6 samples.

Results

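The 7 rows described here are the 5.8S ribosomal RNA rows of chromosome 21 (RNA5-8SN1, RNA5-8SN2, RNA5-8SN3 and ENSG00000277739) and 3 rows on the opposite strand just upstream of them (ENSG00000281181, ENSG00000280800 and ENSG00000281383). They were picked by name out of 60612 rows of the deposited table, because they were far higher after PLOD3 siRNA than in controls, so their levels and fold changes are given as a description and without a test. RNA was sequenced from HCT116 cells, a line of epithelial colorectal cancer cells from a human tumour, in 3 samples given PLOD3 siRNA and 3 given the control siRNA si NC, both for 2 days. The labels name no further allele or agent in either group, and they do not say how many siRNA sequences made up the PLOD3 siRNA. PLOD3 encodes a lysyl hydroxylase that also transfers sugars to collagen. Library preparation included removal of ribosomal RNA with a Ribo-Zero kit, per the labels' protocols, so the levels below are those of the RNA that was left.

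Ribosomal DNA lies in tandem copies on the short arms of the acrocentric chromosomes, of which chromosome 21 is one. In the nucleolus, RNA polymerase I copies each unit into a long 45S precursor that holds the 18S, 5.8S and 28S rRNAs in that order, separated by internal transcribed spacers (ITS1 and ITS2). Nucleases, the nuclear exosome and box C/D snoRNPs process and modify the precursor. The 5.8S rRNA then pairs with 28S rRNA in the large ribosomal subunit, while 18S rRNA goes to the small subunit. The 5S rRNA is made separately, by RNA polymerase III.

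The 5.8S rows cannot be told apart by sequence, which is why it is shown once. In the GENCODE 29 transcripts all 4 rows had the same 153 bases, with a GC content of 57.5%:
5.8S, all 4 rows: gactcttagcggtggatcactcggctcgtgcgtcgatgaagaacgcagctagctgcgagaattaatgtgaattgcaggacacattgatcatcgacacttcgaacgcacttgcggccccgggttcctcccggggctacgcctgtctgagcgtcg

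The minus-strand rows are also near copies of each other. ENSG00000281181, ENSG00000280800 and ENSG00000280614, a further row of the same kind that is no member but is given below for completeness, were identical over 923 bases. ENSG00000281383 differed from them at 4 places, 2 substitutions and 2 gaps, for an identity of 99.6%. The stretch that holds 3 of those differences is shown for ENSG00000281383 (bases 89 to 121) and for ENSG00000281181 (bases 89 to 122), with the differing bases in capitals:
ENSG00000281383: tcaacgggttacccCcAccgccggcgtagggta
ENSG00000281181: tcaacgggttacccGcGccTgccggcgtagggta

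On GRCh38, RNA5-8SN2 lay at chr21:8212572-8212724, ENSG00000277739 at chr21:8256781-8256933, RNA5-8SN3 at chr21:8395607-8395759 and RNA5-8SN1 at chr21:8439823-8439975, all on the plus strand. The minus-strand rows lay at chr21:8210384-8211306 (ENSG00000280800), chr21:8254592-8255514 (ENSG00000281383), chr21:8393419-8394341 (ENSG00000280614) and chr21:8437629-8438551 (ENSG00000281181). Each of them ended 1265 to 1271 bases before the start of a 5.8S row. The starts of neighbouring 5.8S rows were 44209, 138826 and 44216 bases apart.

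**Figure D1:**
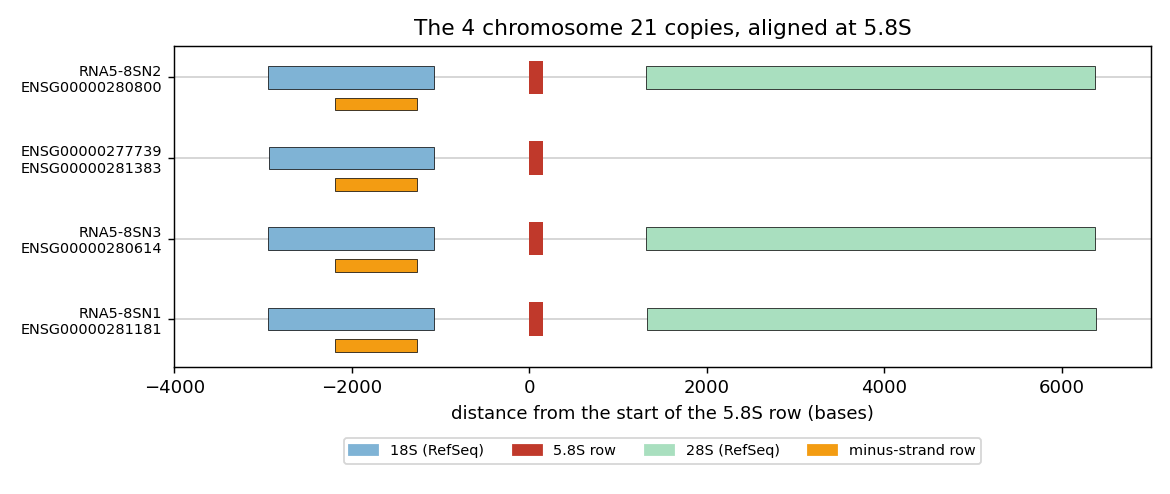
Map of the 4 chromosome 21 copies in their order along the chromosome, aligned at the start of the 5.8S row. The x axis gives the distance from that start in bases; boxes are the 5.8S rows, the minus-strand rows and the RefSeq genes and pseudogenes named as 18S or 28S. Of the 4 minus-strand rows, 3 lie inside an 18S gene and ENSG00000281383 lies inside the 18S pseudogene RNA18SP5.

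In RefSeq (GRCh38.p14), 3 of the 5.8S rows belong to a unit with a 45S entry, RNA45SN1, RNA45SN2 and RNA45SN3. The fourth, ENSG00000277739, corresponds to the pseudogene RNA5-8SP10, beside the 18S pseudogene RNA18SP5 and with no 45S entry. Every minus-strand row lay over its full 923 bases within an 18S gene or, for ENSG00000281383, within RNA18SP5. As part of 1 precursor, 18S rRNA is transcribed in the direction of 5.8S rRNA, opposite to these rows. The deposited table describes these rows as long noncoding RNAs similar to YAM1, a YY1-associated RNA of muscle differentiation. It has 0 rows whose symbol starts with RNA18S, RNA28S or RNA45S. The strand setting of the counting is not given in the sources used here. Reads of 18S rRNA and reads of an RNA from the opposite strand therefore cannot be told apart in these rows, and they are called minus-strand rows below for their annotation only.

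Facts of the whole experiment bear on how these values read. Estimated counts summed to 55416555 to 76802428 per library. A read pair was taken as about 4 of these units, because rows with a count of 4 (1490 per sample on average) outnumbered those with 3 (558) or 5 (312). Numbers of read pairs given below are estimates on that basis, above all for short rows and rows that share reads. PLOD3, the siRNA's target, fell to 3.44, 3.40 and 4.05 FPKM (fragments per kilobase, normalised to library size) in PLOD3 siRNA samples 1 to 3, against 6.40, 7.16 and 6.22 in si NC (log2 fold change -0.85, edgeR adjusted p = 0.0035). Among the colon epithelial markers, 5 of 6 averaged at least 1 FPKM, with CDH1, EPCAM, KRT8, KRT18 and KRT19 present, and the list summed to 558.9 to 635 FPKM in PLOD3 siRNA and 661 to 716 in si NC. Fibroblast markers summed to 1.45 to 1.91 and 2.62 to 2.69 FPKM, with DCN and LUM without reads, and COL1A1 alone of 6 averaged at least 1. Leukocyte markers (0 of 5 at that level, PTPRC and CD3E without reads) summed to 0.109 to 0.234 and 0.266 to 0.431 FPKM. Endothelial markers (0 of 4, CDH5 without reads) summed to 0.0795 to 0.119 and 0.0785 to 0.221 FPKM. The labels do not state whether replicates came from separate cultures, and every p-value here is set against a spread between samples that may be technical.

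RNA5-8SN3 was the highest of the 5.8S rows in all 6 samples. It had 154, 148 and 138 FPKM in PLOD3 siRNA samples 1 to 3, against 13.0, 10.1 and 14.6 FPKM in si NC samples 1 to 3. The lowest PLOD3 siRNA sample was far above the highest si NC sample. Means were 147 ± 7.91 FPKM and 12.6 ± 2.26 FPKM (SD, n = 3 each), a ratio of 11.7, and the fold change in the fit of all tested genes was 3.54 on the log2 scale. In bulk RNA, a change in the number of cells that hold an RNA and a change in its amount per cell cannot be told apart.

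RNA5-8SN2 had 96.8, 95.5 and 88.9 FPKM in PLOD3 siRNA, against 8.13, 6.83 and 9.62 FPKM in si NC. The groups did not overlap, and the order of the samples within each group was that of RNA5-8SN3. The means of 93.7 ± 4.23 and 8.19 ± 1.39 FPKM (SD, n = 3 each) gave a ratio of 11.4 and a log2 fold change of 3.51. ENSG00000277739, the row that RefSeq lists as a pseudogene, had 40.4, 39.5 and 38.0 FPKM in PLOD3 siRNA, against 3.56, 2.73 and 3.82 FPKM in si NC. Its groups were as far apart as those of the rows in complete units. The means were 39.3 ± 1.22 and 3.37 ± 0.565 FPKM (SD, n = 3 each), with a ratio of 11.7 and a log2 fold change of 3.52.

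RNA5-8SN1 was the lowest 5.8S row in all 6 samples. It had 29.4, 28.3 and 25.0 FPKM in PLOD3 siRNA, against 2.57, 2.43 and 2.23 FPKM in si NC. Its si NC samples rest on few reads, with estimated counts of 27, 29 and 31, or an estimated 6.75, 7.25 and 7.75 read pairs. The means of 27.6 ± 2.26 and 2.41 ± 0.170 FPKM (SD, n = 3 each) gave a ratio of 11.4 and a log2 fold change of 3.49. The 4 rows are the same 153 bases, and how the authors' counting split reads among them is not given in the sources used here, so their summed level is the firmer value. That sum was 320.1, 311 and 289.9 FPKM in PLOD3 siRNA and 27.3, 22.1 and 30.3 FPKM in si NC.

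**Figure D2:**
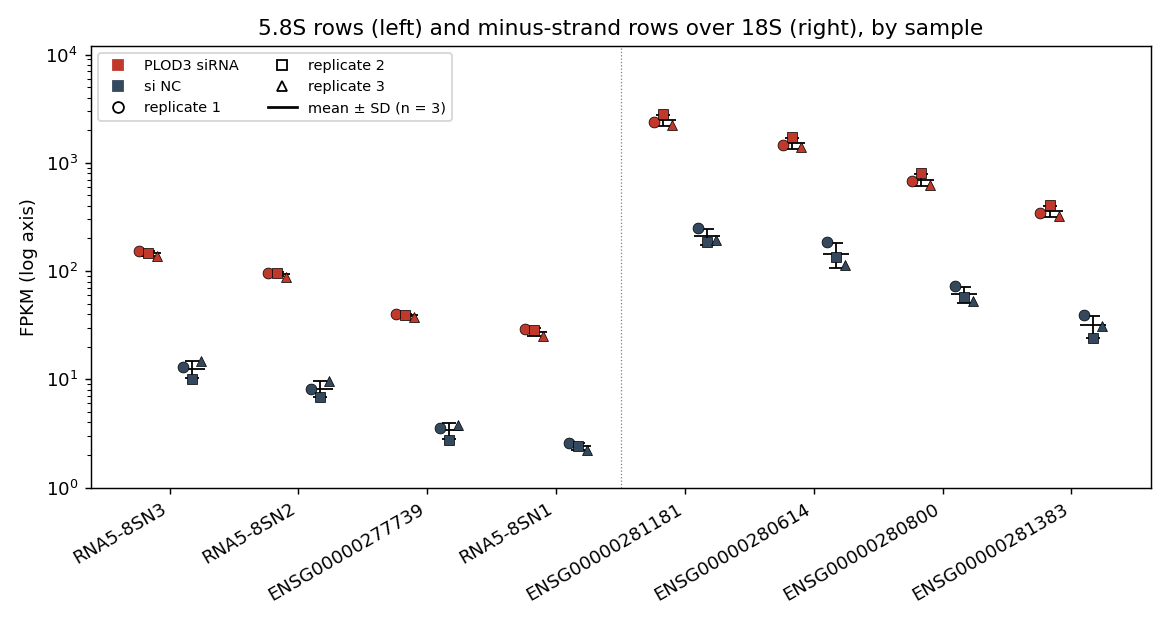
FPKM (log axis) of the 4 5.8S rows, left of the dotted line, and of the 4 minus-strand rows, right of it. Each point is 1 sample, with PLOD3 siRNA in red and si NC in dark blue, marker shapes give the replicate, and bars give the mean ± SD (n = 3). In each row all 3 PLOD3 siRNA samples sit above all 3 si NC samples.

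In FPKM, the minus-strand rows were much higher than the 5.8S rows. They span 923 bases and the 5.8S rows 153, and whether RNA of both lengths was recovered equally was not tested. ENSG00000281181, upstream of RNA5-8SN1, had 2384, 2829 and 2251 FPKM in PLOD3 siRNA, against 250.3, 186.9 and 193.4 FPKM in si NC. It ranked 16, 16 and 19 by FPKM among all rows in the PLOD3 siRNA samples, and 102, 146 and 131 in the si NC samples. Its means of 2488 ± 303 and 210.2 ± 34.9 FPKM (SD, n = 3 each) gave a ratio of 11.8 and a log2 fold change of 3.58, the highest of the 7 members. It alone held 186510, 170893 and 133937 estimated counts in PLOD3 siRNA, against 15375, 13218 and 15983 in si NC.

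ENSG00000280800, upstream of RNA5-8SN2, had 673, 798 and 628 FPKM in PLOD3 siRNA, against 72.3, 58.1 and 52.9 FPKM in si NC. The means of 699.8 ± 87.8 and 61.1 ± 10.03 FPKM (SD, n = 3 each) had a ratio of 11.5, with a log2 fold change of 3.53. ENSG00000281383, beside the pseudogene copy, had 344, 406 and 325 FPKM in PLOD3 siRNA, against 38.9, 24.3 and 31.1 FPKM in si NC. It was the lowest of its kind in all 6 samples, at 359 ± 42.5 and 31.4 ± 7.31 FPKM (SD, n = 3 each), yet the ratio was 11.4 and the log2 fold change 3.53. In both rows the groups were clear of each other.

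The fourth copy, ENSG00000280614, upstream of RNA5-8SN3 and no member, had 1448, 1724 and 1394 FPKM in PLOD3 siRNA, against 186.7, 135 and 113 FPKM in si NC. Its log2 fold change of 3.41 stood just below those of the members, and its ratio of mean FPKM was 10.5. Including it, the minus-strand rows at the 4 copies summed to 4850, 5757 and 4599 FPKM in PLOD3 siRNA, against 548.1, 404 and 390.1 FPKM in si NC.

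The 7 members moved by nearly the same factor although their levels spanned a wide range. Rows of a family have the same or nearly the same sequence, so they can share reads. Their near-equal fold changes, and the split of levels among them, are therefore not 7 separate measurements. The log2 fold changes ran from 3.49 to 3.58 with a median of 3.53, at a median of 3.51 over the 5.8S rows and 3.53 over the minus-strand rows, and they ranked between 17 and 24 among 12000 tested genes. The median over all tested genes was 0.00. All 7 rows passed the filter of a mean of at least 1 FPKM over the 6 samples, and all 7 did so in the si NC samples alone. In all 7 members every PLOD3 siRNA sample was above every si NC sample, against 24.6% of all tested genes. At an edgeR adjusted p under 0.05, 16.2% of tested genes were called higher and 19.3% lower (35.5% in either direction), or 1945 and 2319 genes against 2470 and 1461 in limma on TPM, and 0.225% (27 genes) had a log2 fold change above 3. As the members were chosen by this very difference, nothing is read from their position against those shares.

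The members made up a small share of each library in both groups. They held 0.377% (95% Wilson interval 0.374 to 0.380), 0.445% (0.442 to 0.449) and 0.348% (0.345 to 0.352) of the estimated counts in PLOD3 siRNA samples 1 to 3. In si NC samples 1 to 3 they held 0.0391% (0.0381 to 0.0402), 0.0295% (0.0287 to 0.0304) and 0.0304% (0.0296 to 0.0312). The intervals take 4 units as 1 read pair and cover counting error only; the differences between samples of a group were wider than them. Means were 0.390 ± 0.0498% and 0.0330 ± 0.00531% (SD, n = 3 each), or 0.555% and 0.0486% with the fourth minus-strand row. Nearly all of these counts were in the minus-strand rows, which are longer than the 5.8S rows and were also higher per length. The 5.8S rows held 1.43% of the members' counts in PLOD3 siRNA and 1.46% in si NC.

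How each family's signal was divided among its copies was very similar in both groups. As the copies are identical or nearly so, the shares of both families depend on how the counting placed reads that match several copies. They are therefore not read as the output of single copies. RNA5-8SN3 took 47.7 ± 0.244% of the summed 5.8S FPKM in PLOD3 siRNA and 47.2 ± 1.28% in si NC (SD, n = 3 each, as in all shares here). RNA5-8SN2 took 30.5 ± 0.260% and 30.8 ± 0.970%, and ENSG00000277739 took 12.8 ± 0.261% and 12.7 ± 0.364%, PLOD3 siRNA first in each pair. The share of RNA5-8SN1 was 8.97 ± 0.290% in PLOD3 siRNA and 9.27 ± 1.81% in si NC. No share differed between the groups by more than the SD of the si NC samples. RNA5-8SN3 had 5.23, 5.23 and 5.51 times the FPKM of RNA5-8SN1 in PLOD3 siRNA, against 5.05, 4.17 and 6.54 times in si NC.

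Among the minus-strand rows ENSG00000281181 took 49.1 ± 0.115% of the summed FPKM in PLOD3 siRNA and 47.2 ± 2.13% in si NC. The share of ENSG00000280614 was 30.04 ± 0.242% and 32.1 ± 2.82%, that of ENSG00000280800 13.8 ± 0.120% and 13.7 ± 0.607%, and that of ENSG00000281383 7.08 ± 0.01998% and 7.02 ± 0.987%. All 4 differences were within the SD of the si NC samples. The spread of the shares over samples was narrower in PLOD3 siRNA, where each row had more reads. ENSG00000281181 had 6.92, 6.96 and 6.92 times the FPKM of ENSG00000281383 in PLOD3 siRNA and 6.44, 7.70 and 6.22 times in si NC.

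**Figure D3:**
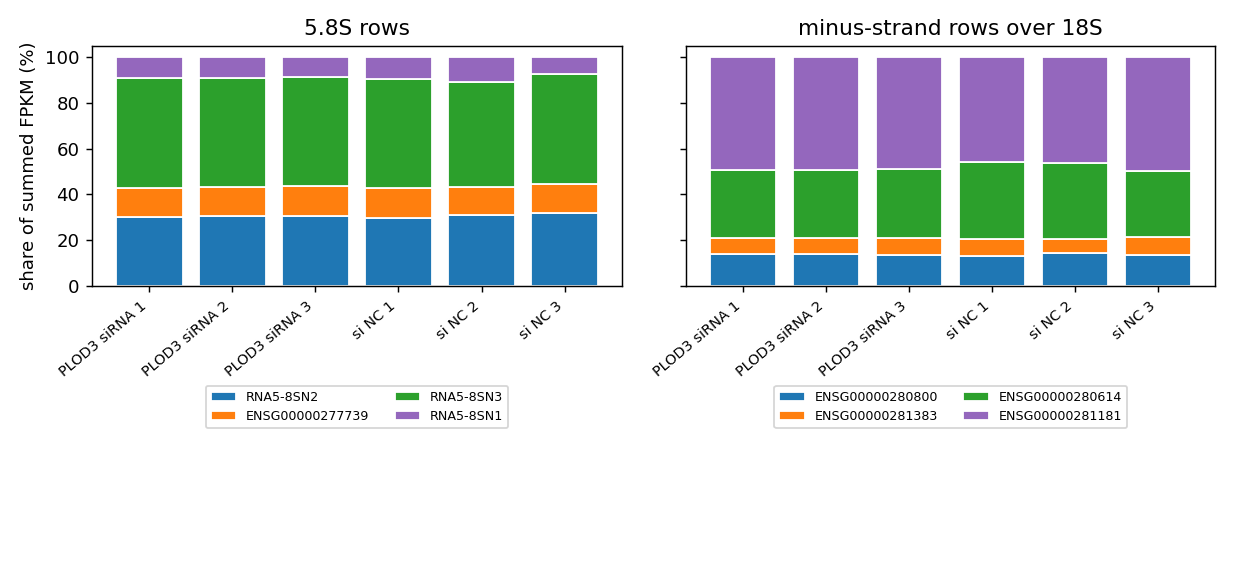
Share of the summed FPKM (%) that each of the 4 copies took in each sample, for the 5.8S rows (left) and the minus-strand rows (right), with PLOD3 siRNA samples left of si NC samples. RNA5-8SN3 holds 45.8 to 48.2% of the 5.8S sum and ENSG00000281181 holds 45.7 to 49.6% of the minus-strand sum.

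The order of the copies differed between both families. The unit of RNA45SN1 had the lowest 5.8S row and the highest minus-strand row, whereas the unit of RNA45SN3 had the highest 5.8S row and the second minus-strand row. In FPKM, the minus-strand row had 81.1, 99.9 and 89.9 times the level of its 5.8S row at RNA45SN1 in PLOD3 siRNA, against 97.3, 76.9 and 86.6 times in si NC. At the other units that ratio was far lower. It was 10.4 ± 1.14 in PLOD3 siRNA and 11.8 ± 3.58 in si NC at RNA45SN3, 9.13 ± 1.01 and 9.31 ± 1.43 at the pseudogene copy, and 7.46 ± 0.774 and 7.63 ± 1.86 at RNA45SN2 (SD, n = 3 each). Within each unit the groups overlapped in this ratio. Since reads of identical copies may have been assigned to any of them, the ratio over all 4 units depends less on that assignment. It was 15.2, 18.5 and 15.9 in PLOD3 siRNA and 20.1, 18.3 and 12.9 in si NC, again overlapping. As rows of unlike length are compared, it is not read as a ratio of RNA amounts.

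The samples of a group did not take the same order in both families. In PLOD3 siRNA, sample 1 was the highest in all 4 of the 5.8S rows and sample 2 the highest in all 4 minus-strand rows. In si NC, sample 1 was the highest in all 4 minus-strand rows, while sample 3 was the highest in 3 of the 4 5.8S rows and the lowest in RNA5-8SN1. Every such difference within a group was small beside the difference between groups.

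Few reads fell on the annotated rows between and around these units. Within 100 kb of the members' span the table lists 25 other rows, and apart from ENSG00000280614 a single one averaged at least 1 FPKM. This was ENSG00000280441, a plus-strand long noncoding RNA that spans the units of RNA5-8SN3 and RNA5-8SN1 (chr21:8380643-8454792) with 1.37, 1.15 and 1.29 FPKM in PLOD3 siRNA, against 1.45, 1.25 and 1.31 FPKM in si NC. Its groups overlapped, with a log2 fold change of -0.07 (edgeR adjusted p = 0.678; 0.024 and adjusted p = 0.899 in limma on TPM). ENSG00000278996, a like row that spans the unit of RNA5-8SN2 (chr21:8197620-8227646), had 0.745, 0.785 and 0.710 FPKM in PLOD3 siRNA, against 0.766, 0.842 and 0.750 FPKM in si NC. The exons that GENCODE 29 gives for either gene do not overlap a RefSeq 45S gene; its model of ENSG00000280441 ends at position 8410645, before the end in the table.

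The other 22 rows of that stretch, small RNAs and unconfirmed transcripts, never passed an estimated count of 15, or an estimated 3.75 read pairs, in any sample. Of the 25 rows, 1 had no reads at all. ENSG00000277437, annotated as a miRNA at chr21:8208844-8208904, had 1.11, 2.38 and 0.694 FPKM in PLOD3 siRNA and was listed at 0 in all si NC samples. These values rest on estimated counts of 6, 10 and 3, too few for a fold change. Over the rest of chromosome 21, 118 tested genes outside the members had a median log2 fold change of -0.03, with 21 called higher and 20 lower (26 and 9 in limma on TPM). One of the 21 is ENSG00000280614; the others reached at most 1.03 on the log2 scale.

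Other ribosomal RNA rows gave little to compare. The table has 5 pseudogene rows of 5.8S on other chromosomes, with 72.0 to 93.5% identity to the sequence above, and all 5 had no reads in all 6 samples. Of 520 rows for 5S rRNA and its pseudogenes, 451 had no reads and 1, RNA5SP202, averaged at least 1 FPKM. It had 0.537, 2.79 and 3.67 FPKM in PLOD3 siRNA and was listed at 0 in si NC. These values rest on estimated counts of 6, 22 and 29, and the row passed the filter through PLOD3 siRNA alone. Its edgeR adjusted p of 0.0278 follows in part from that selection, so no change is read from it. With si NC replicate 2 or 3 left out, the edgeR adjusted p was 0.0554 and 0.0547. The mitochondrial rRNAs, chosen after their values were seen, were abundant in both groups. MT-RNR1, the small-subunit rRNA of mitochondria, had 4162, 4970 and 3948 FPKM in PLOD3 siRNA, against 3023, 2943 and 3238 FPKM in si NC (log2 fold change 0.52, edgeR adjusted p = 0.0224). That call did not hold without each si NC replicate in turn (adjusted p = 0.0540 to 0.0726). MT-RNR2, the large-subunit rRNA, had 9010, 10733 and 8925 FPKM in PLOD3 siRNA, against 7392, 7773 and 8102 FPKM in si NC (0.31, edgeR adjusted p = 0.0974), and was called higher in DESeq2 (adjusted p = 0.0460) and in limma on TPM (0.0210). In PLOD3 siRNA both mitochondrial rRNAs were highest in sample 2, as were the minus-strand rows.

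Some other short noncoding rows were also far higher after PLOD3 siRNA, but most were not called. Of 463 tested rows under 500 bases without a protein-coding annotation, outside the members, 65 were called higher, 9 lower and 389 in neither direction. Their median log2 fold change was 0.31, and both shares called were below those of all tested genes (16.2% higher and 19.3% lower). Of 10471 protein-coding rows, 1750 were called higher and 2242 lower, with a median of -0.02. The 463 rows include pseudogenes such as RNA5SP202, so these counts do not describe small structural RNAs alone. The 27 rows with a log2 fold change above 3 included the 7 members and ENSG00000280614. Among the others were the signal recognition particle RNAs RN7SL1, RN7SL2 and RN7SL3, the RNase P and MRP RNAs RPPH1 and RMRP, and the snoRNAs SNORD36A and SNORD5. The largest fold changes were not of small RNAs: BLOC1S5-TXNDC5, annotated as nonsense-mediated decay, had 15.1 and the protein-coding FMC1-LUC7L2 had 12.7. The levels of both rows, and whether si NC was near 0, are not given here, so no change in either is read. The part of RNA recovery or library preparation in the members' values was not tested.

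Genes that make and process ribosomal RNA were read from 6 lists, and their counts and shares are given as a description only. These lists were chosen with earlier results of these data known. Together they held 74 tested genes, of which 33 (44.6%) were called higher after PLOD3 siRNA and 0 lower, against 16.2% higher and 19.3% lower of all tested genes. Their median log2 fold change was 0.33, against 0.00 over all tested genes, and 2 had an unadjusted p under 0.05 in the lower direction. In DESeq2 43 were called higher and 1, ISG20L2, lower; limma on log2(FPKM + 1) called 34 higher and 0 lower, with 1 lower at an unadjusted p under 0.05. ISG20L2, an exonuclease that trims the 3′ end of 5.8S precursors, had 4.85 ± 1.76 FPKM in PLOD3 siRNA and 7.52 ± 1.02 FPKM in si NC (log2 fold change -0.63, edgeR adjusted p = 0.0874). The size of these changes was far below that of the members, with a largest log2 fold change of 0.84.

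Of the 16 genes of RNA polymerase I and its factors, 9 rose, 0 fell and 7 did not pass the test (median log2 fold change 0.38). POLR1B, the second-largest polymerase subunit, had 11.4 ± 0.205 FPKM in PLOD3 siRNA and 8.52 ± 0.389 FPKM in si NC (0.42, edgeR adjusted p = 0.0046). TWISTNB, the subunit also called POLR1F, had 11.2 ± 0.360 and 7.21 ± 0.829 FPKM (0.65, edgeR adjusted p = 0.00457). TAF1D, of the promoter factor SL1, had 8.48 ± 0.222 and 5.54 ± 0.469 FPKM (0.62, edgeR adjusted p = 0.00305). RRN3, which brings the polymerase to the promoter factors, rose as well, at a log2 fold change of 0.64 (adjusted p = 0.00649), while POLR1A, the largest subunit, had -0.21 (adjusted p = 0.102). Without PLOD3 siRNA replicate 1, 5 genes of this list were called higher.

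Of the 21 factors that process 5.8S and ITS2, 12 rose and 0 fell (median 0.27). LAS1L, which cuts within ITS2, was the gene with the largest change of all 6 lists, at 17.1 ± 0.518 FPKM in PLOD3 siRNA and 9.61 ± 0.268 FPKM in si NC (log2 fold change 0.84, edgeR adjusted p = 0.00182). NOP58, a core protein of box C/D snoRNPs, had 44.97 ± 1.94 and 26.1 ± 2.27 FPKM (0.79, edgeR adjusted p = 0.00242). NSA2, a large-subunit assembly factor, had 35.9 ± 1.37 and 22.7 ± 0.921 FPKM (0.67, edgeR adjusted p = 0.00255). PES1 and WDR12, which form a complex with BOP1, rose by 0.49 and 0.30 on the log2 scale (adjusted p = 0.00416 and 0.0222), whereas BOP1 was at -0.02 (adjusted p = 0.889). Without si NC replicate 3, 7 genes of this list were called higher.

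Of the 18 genes of the nuclear exosome and its cofactors, which trims the 3′ end of the 5.8S precursor, 7 rose and 0 fell (median 0.33). EXOSC8, of the exosome's ring, had 12.7 ± 1.08 FPKM in PLOD3 siRNA and 7.59 ± 0.774 FPKM in si NC (0.75, edgeR adjusted p = 0.0063). The helicase MTREX had 15.7 ± 0.666 and 9.97 ± 1.16 FPKM (0.67, edgeR adjusted p = 0.0047). EXOSC10, the nuclear exonuclease, had 24.1 ± 0.992 and 19.4 ± 0.292 FPKM (0.32, edgeR adjusted p = 0.00787).

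Of the 6 tested genes of 5S RNP assembly, 3 rose and 0 fell (median 0.41); 5 were called higher in DESeq2, with scaling by library totals or in limma on FPKM, and 6 in limma on TPM. RPF2 had 14.4 ± 0.866 FPKM in PLOD3 siRNA and 9.31 ± 0.312 FPKM in si NC (0.64, edgeR adjusted p = 0.00287), and its partner RRS1 had 40.2 ± 0.891 and 30.06 ± 0.822 FPKM (0.42, edgeR adjusted p = 0.00585). HEATR3, which helps to import RPL5 and RPL11, had 5.33 ± 0.585 and 3.65 ± 0.220 FPKM (0.55, edgeR adjusted p = 0.0153). Of 4 box C/D snoRNP core proteins, 2 rose: NOP58, above, and NOP56, at 74.0 ± 3.48 and 47.4 ± 1.87 FPKM (0.65, edgeR adjusted p = 0.00287). FBL, the methyltransferase of these particles, had 159 ± 6.42 and 140.4 ± 15.1 FPKM (0.19, adjusted p = 0.184).

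Among 10 large-subunit proteins that lie around 5.8S rRNA, RPL35 was the 1 gene called higher, and 0 were called lower (median 0.33). It had 397 ± 58.9 FPKM in PLOD3 siRNA and 285 ± 17.6 FPKM in si NC (0.49, edgeR adjusted p = 0.037), a call lost without PLOD3 siRNA replicate 1 or 2 or any si NC replicate (adjusted p = 0.0533 to 0.101). RPL26 had 257 ± 33.7 and 202 ± 10.2 FPKM (0.36, adjusted p = 0.0594), and RPL17 had 157 ± 19.8 and 117 ± 17.1 FPKM (0.44, adjusted p = 0.0553). Ribosomal protein genes have many processed pseudogenes, so how their reads were assigned is uncertain. The number called higher in this list was between 0 and 7, depending on the tool, the filter or a replicate left out.

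**Figure D4:**
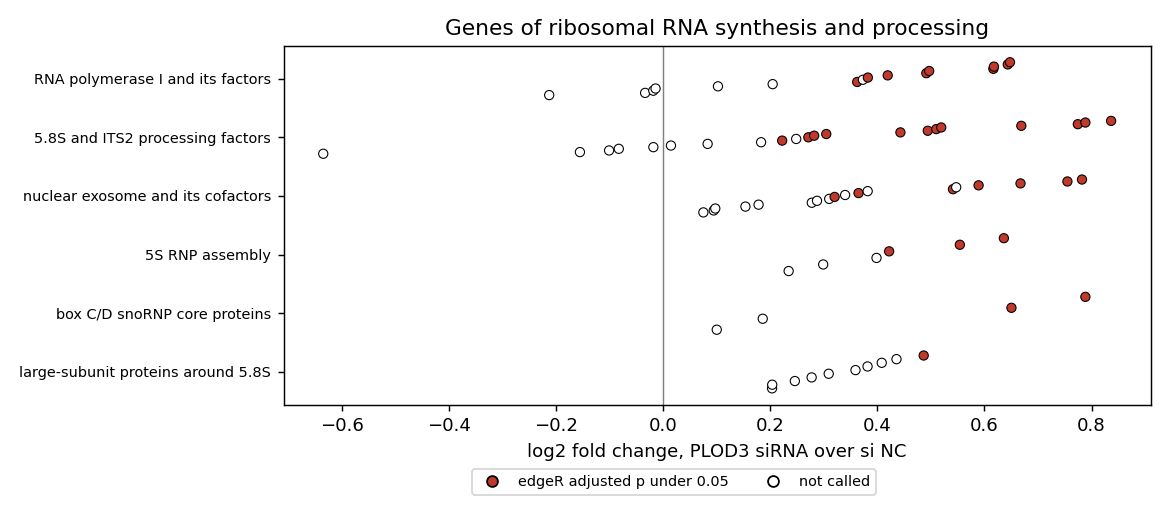
Log2 fold change, PLOD3 siRNA over si NC, of the genes of the 6 lists. Each point is 1 gene in 1 list, filled where the edgeR adjusted p was under 0.05. NOP58, which is in both the processing list and the box C/D list, has a point in each. In total 33 genes are filled, all to the right of 0, and LAS1L is farthest right at 0.84.

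By Pearson's r over the 6 samples between log2 CPM and the mean log2 CPM of the members, the 5 rows most like the members were DNAJC9, MAGOHB, SUCLG2, POLR1B and SMN1. DNAJC9, a histone chaperone, had r = 0.999 with 22.3, 21.8 and 21.9 FPKM in PLOD3 siRNA, against 11.1, 9.82 and 10.9 FPKM in si NC. MAGOHB, an exon junction complex subunit, and SUCLG2, of succinyl-CoA ligase, also had r = 0.999, as did POLR1B, and SMN1, of the complex that assembles spliceosomal snRNPs, had r = 0.998. Their log2 fold changes were 1.06, 0.96, 0.25, 0.42 and 0.59 in that order, all smaller than the members'. SMN1 has a near-identical copy, SMN2, so its level is uncertain. The samples form 1 cluster per group, so r mostly measures the gap between groups, and 769 of 11993 tested rows had r above 0.95.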

How the data were processed

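RNA of 6 HCT116 samples was measured by RNA-seq. Deposited FPKM values and estimated counts per gene came in 1 table, per the file headers (12 value columns, 0 unmapped). The counts were whole and not normalized. Rows without reads hold 0.0001 FPKM. Per the submitters' processing notes, cutadapt 1.9, HISAT2 2.0.4 and StringTie 1.3.4d were used; the sources used here give no build, annotation, strand setting or treatment of reads that match several copies. As 96.3% of identifiers matched GENCODE 29, 99.9% of them at an overlapping position, coordinates were read as GRCh38. Counts as deposited were tested with edgeR 4.0.16 in R 4.3.3 (quasi-likelihood, TMM, trended dispersion, two-sided, Benjamini-Hochberg, threshold 0.05) on the 12000 rows whose FPKM averaged at least 1. DESeq2 1.42.0 and limma 3.58.1 served as alternatives. The edgeR script was checked on simulated counts. Sequences came from GENCODE 29 transcripts. Replicate numbers were not treated as pairs in the main fit. The members and the gene lists were chosen with earlier results of these data known. Named were the target, the members, other rRNA rows with a mean FPKM of at least 1, rows within 100 kb, up to 3 genes per list with the smallest p and the 5 rows most like the members; ISG20L2, RRN3, POLR1A, PES1, WDR12, BOP1, rows with a log2 fold change above 3 and the mitochondrial rRNAs were added after their values were seen. Levels are mean ± SD.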

Additional observations from a re-analysis of the deposited data

How the results depend on the processing

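Of 119 log2 fold changes of the 7 members over the alternatives, all were positive, between 3.06 and 3.70; 2 moved by more than the replicate spread, ENSG00000277739 at 3.21 and RNA5-8SN1 at 3.06 in limma on log2(FPKM + 1), where the pseudocount lowers the fold change of low rows. Among all genes tested, 1945 were called higher and 2319 lower. With a mean FPKM of at least 5, which tests fewer genes, the counts were 1192 and 1354, and 12 on chromosome 21 lower, against 20. In limma on TPM they were 2470 and 1461 (9 on chromosome 21 lower), with the median of all genes at 0.10; the cause was not tested. Leaving out 1 replicate gave 1093 to 1669 higher and 1493 to 2030 lower, with the lowest counts without si NC replicate 3 (1093 and 1493) and without PLOD3 siRNA replicate 1 (1104 and 1540), 0 to 1 lower in the 6 lists and 12 to 20 lower on chromosome 21. In the 6 lists 1 gene, ISG20L2, was called lower in DESeq2; the cause was not tested. The one reversed sign was ENSG00000280441, at 0.024 in limma on TPM; the cause was not tested. Deviations of same-numbered samples had correlations of 0.0632, -0.0189 and -0.0373, against -0.0494 to 0.0779 for differently numbered samples. No pairing by number was seen, but so few samples cannot exclude one. With a replicate block 1471 genes were called higher and 1834 lower, 29 of the 6 lists higher and 0 lower, and 3 large-subunit proteins higher against 1. In that fit RNA5SP202 missed the threshold (edgeR adjusted p = 0.0503), and the members' log2 fold changes were 3.48 to 3.58. Depth limits RNA5-8SN1 in si NC most, at an estimated 6.75 to 7.75 read pairs.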
